A study of Mus musculus with 8 samples.

Results

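The 9 genes described here are the transcription factor gene Nfe2l2 (NRF2), its inhibitor Keap1 and 7 genes of the oxidative stress program that NRF2 drives: Gclc, Gclm, Gsr, Txnrd1, Prdx1, Srxn1 and Hmox1. They were chosen by name as a known pathway, with earlier results of these data known. All 9 were found among the 55401 genes counted and were among the 17532 that passed the filter on low counts. Total RNA was sequenced from 8 libraries of mouse embryonic stem cells (ESCs): 2 labelled Control, 3 labelled Zzz3_auxin and 3 labelled Yeats2_auxin. In the auxin groups, either ZZZ3 or YEATS2, both core parts of the histone acetyltransferase complex ATAC, carried an auxin-inducible degron (AID) and were removed by auxin at 500 µM for 24 h. The question put to these genes was whether loss of either subunit moved the RNA of this stress program.

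The labels give neither the line of the Control libraries nor whether they received auxin or solvent. The study's supplement speaks of AID cells given solvent or auxin, its methods call the reference wild type, and neither assigns these 2 libraries to a line. Loss of the subunit, exposure to auxin and any difference between lines therefore cannot be told apart here in a comparison with Control. Per the growth protocol, which is the same for all 8 libraries, the cells were kept under G418 to select for Tir1, the plant F-box protein that recognises the AID tag. The medium held serum, leukaemia inhibitory factor and inhibitors of the MEK and GSK3 kinases (2i). It also held β-mercaptoethanol, a reducing agent. No label names a clone, and none says that replicates came from separate cultures, so p values measure only the spread between these libraries. Replicates 1 and 3 of Yeats2_auxin were far more alike than any other pair within a group. The tests count them as separate libraries. If they are not, the spread shared by all comparisons is underestimated.

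NRF2 is a leucine zipper factor that is made constantly and destroyed constantly. KEAP1, a sensor with reactive cysteines, binds NRF2 and hands it to a CUL3 ubiquitin ligase, and oxidants or electrophiles that modify KEAP1 let NRF2 accumulate. NRF2 then pairs with small MAF proteins on antioxidant response elements near genes for glutathione synthesis, the thioredoxin system, NADPH supply and haem breakdown. Because this control acts on the protein, NRF2 activity is commonly read from the RNA of its targets rather than from Nfe2l2 RNA.

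The antioxidant response element, through which NRF2 acts, was looked for in the promoters of these genes. RefSeq promoter windows of 300 bases (250 before and 50 after the start, GRCm38.p6) were at hand for 6 of the 9 genes, with 3 windows for Txnrd1. Its core was searched as TGACNNNGC and as TGAGNNNGC, on both strands. One or the other was found in a window of 5 of these 6 genes (Nfe2l2, Gclm, Txnrd1, Prdx1 and Srxn1) and not in that of Keap1. Across all 32851 windows, 27.8% held at least 1 of them, so a match alone is common. The windows of the factor, of Prdx1 and of Srxn1 are shown up to the start of the gene, each read 5′ to 3′ on the strand of its gene, with matches in capitals. They were chosen because Nfe2l2 is the factor, Prdx1 the member that, as counted, lay farthest from the controls and Srxn1 the member with the most matches.
Nfe2l2, chr2:75704664-75704913, minus strand: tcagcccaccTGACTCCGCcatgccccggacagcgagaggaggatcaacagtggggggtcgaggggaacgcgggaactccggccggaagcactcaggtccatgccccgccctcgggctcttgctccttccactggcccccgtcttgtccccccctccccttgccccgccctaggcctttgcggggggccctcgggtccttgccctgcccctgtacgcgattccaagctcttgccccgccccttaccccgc
Prdx1, chr4:116685349-116685543, plus strand: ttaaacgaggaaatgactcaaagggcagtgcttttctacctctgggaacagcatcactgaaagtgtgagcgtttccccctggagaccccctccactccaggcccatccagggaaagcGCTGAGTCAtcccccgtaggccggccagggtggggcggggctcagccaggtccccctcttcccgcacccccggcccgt
Srxn1, chr2:152105274-152105515, plus strand: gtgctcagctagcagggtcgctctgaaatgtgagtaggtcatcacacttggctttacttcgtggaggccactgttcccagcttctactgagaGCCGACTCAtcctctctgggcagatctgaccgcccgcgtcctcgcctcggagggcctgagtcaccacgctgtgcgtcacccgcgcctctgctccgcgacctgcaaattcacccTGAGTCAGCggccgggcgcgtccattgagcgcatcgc

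In the Prdx1 promoter the match lies on the opposite strand and reads TGACTCAGC there, at -133 to -125 from the RefSeq start. This exact site was in 0.454% of all windows. Srxn1 held TGAGTCAGC at -45 to -37, an exact site present in 0.414% of windows, and TGAGTCGGC on the opposite strand at -158 to -150. The shares of both exact sites were looked up after the matches were seen. In Nfe2l2 itself the match TGACTCCGC lay at -240 to -232. Prdx1 and Srxn1 each held 1 further match after the start, and Gclm and Txnrd1 held 1 match each. A match describes letters in a window and does not show that NRF2 binds there in ESCs.

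Reads assigned to genes ranged from 14315120 (Zzz3_auxin replicate 3) to 27884704 per library. Levels are given as CPM, the reads of a gene relative to the reads of its library on all genes that passed the filter. The library sizes were scaled by TMM factors (trimmed mean of M values), which align the bulk of genes between libraries. All 8 ESC markers examined, among them Pou5f1 and Nanog, were above a mean of 1 CPM, while the 6 fibroblast feeder markers together reached at most 2.72 CPM and the 5 endoderm markers at most 1.94 CPM in any library. The 4 neuroectoderm markers, of which Nes made up most, summed to 40.8 to 43.0 CPM in Control, 48.4 to 71.7 CPM in Zzz3_auxin and 44.8 to 50.3 CPM in Yeats2_auxin, and the 4 mesendoderm markers to 12.2 to 22.8 CPM over all libraries. The part of these cells in any result was not tested. In bulk RNA, fewer cells of a type and less RNA per cell cannot be told apart. Zzz3 RNA was 186 and 182 CPM in Control and 77.5, 96.9 and 112 CPM in Zzz3_auxin, a log2 fold change (FC) of -0.95 ± 0.14 (SE; adjusted p = 0.0187, edgeR). Leaving out any 1 of 5 libraries, or fitting only both groups compared, ended this call, with adjusted p from 0.0516 to 0.293. Yeats2 RNA did not set the libraries labelled Yeats2_auxin apart from Control, at 77.3, 103 and 43.7 CPM against 90.9 and 95.8 CPM. It was at 133, 119 and 123 CPM in Zzz3_auxin, above every library of the other groups. For Yeats2_auxin against Zzz3_auxin the log2 FC was -0.74 ± 0.24 (unadjusted p = 0.0101, adjusted p = 0.779, edgeR). These levels check nothing about the protein, since the degron acts on it.

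None of the 9 genes was called at an adjusted p under 0.05 in edgeR in any of the 3 comparisons. Among all genes tested, 132 of 17532 (0.753%) were called for Zzz3_auxin against Control, 78 (0.445%) for Yeats2_auxin against Control and 0 (0.0%) for Yeats2_auxin against Zzz3_auxin. At an unadjusted p under 0.05 the members numbered 2 of 9 (Gsr and Prdx1) for Zzz3_auxin, beside 21.7% of all genes tested. For Yeats2_auxin they numbered 0 of 9, beside 14.6%, and in the direct comparison 1 of 9 (Gsr), beside 6.25%. DESeq2, the tool of the study, also called 0 of 9 in each comparison, while it called 7.78% of genes for Zzz3_auxin, 2.75% for Yeats2_auxin and 0.00909% between the depletions. These shares did not set the members apart from other genes.

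The fitted differences were small as well as uncalled. The median log2 FC of the 9 genes was 0.08 for Zzz3_auxin and -0.01 for Yeats2_auxin, against 0.01 and -0.01 over all genes tested. Single members ranged from -0.45 to 0.35 for Zzz3_auxin and from -0.29 to 0.23 for Yeats2_auxin, with SEs of 0.12 to 0.19. The widest 95% confidence intervals reached from -0.74 to 0.66 for Zzz3_auxin and from -0.58 to 0.56 for Yeats2_auxin, so a 2-fold change of any member in either direction lay outside its interval. Changes within these intervals could not be resolved with 2 Control libraries.

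**Figure D1:**
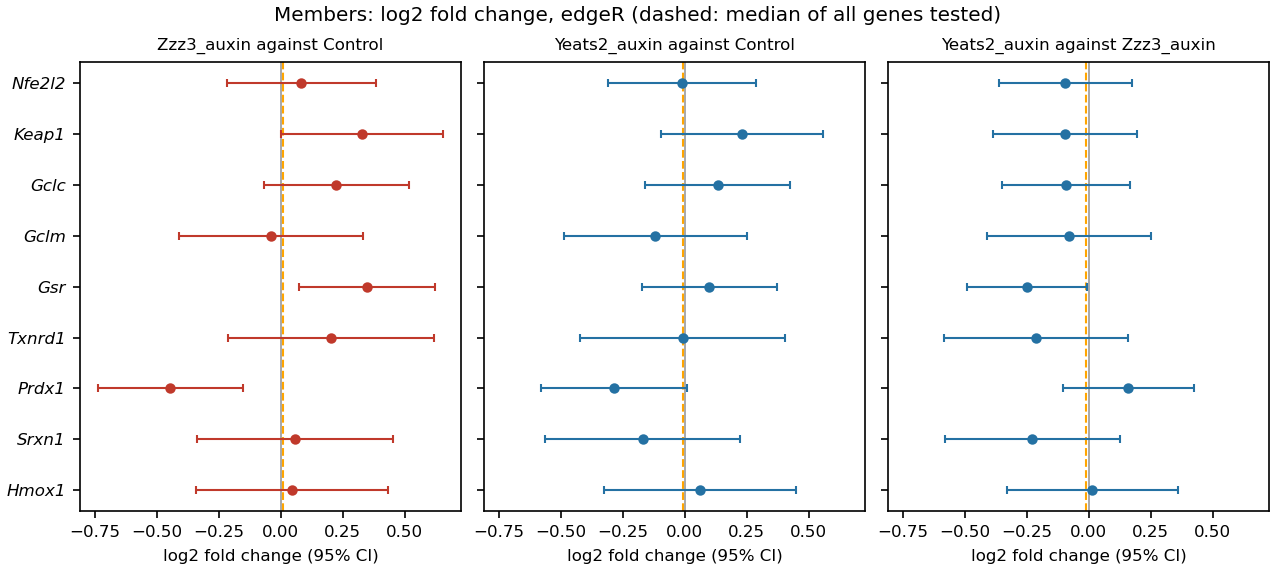
Log2 fold change (x axis) of each of the 9 genes (y axis) in the 3 comparisons, with 95% confidence intervals from edgeR and the median of all genes tested as a dashed line. All intervals lie between -0.74 and 0.66, and those that leave out 0 are Prdx1 and Gsr for Zzz3_auxin against Control and Gsr between the depletions.

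Nfe2l2 (chr2:75675513-75704641, minus strand) was at 170 and 155 CPM in Control, 195, 177 and 144 CPM in Zzz3_auxin and 165, 150 and 168 CPM in Yeats2_auxin. The 3 groups overlapped, and Zzz3_auxin alone held both the highest and the lowest library. The log2 FC was 0.08 ± 0.14 (SE; adjusted p = 0.762) for Zzz3_auxin and -0.01 ± 0.14 (adjusted p = 0.98) for Yeats2_auxin. RNA of the factor was thus abundant in every group, with 2151 to 5072 reads behind each value.

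Keap1 (chr9:21229730-21239361, minus strand) encodes the sensor that holds NRF2 down. It was at 39.4 and 52.5 CPM in Control, 54.7, 54.3 and 64.1 CPM in Zzz3_auxin and 51.3, 58.5 and 51.9 CPM in Yeats2_auxin. All Zzz3_auxin libraries lay above both controls, whereas those of Yeats2_auxin lay above 1 control and around the other. The log2 FC was 0.33 ± 0.15 (adjusted p = 0.231) for Zzz3_auxin and 0.23 ± 0.15 (adjusted p = 0.499) for Yeats2_auxin. Keap1 had the highest exonic GC content of the 9 genes, 58.0%, and its extremes fell in the libraries with the extremes of the GC trend. Control replicate 1, where Keap1 was lowest, held GC-rich genes 0.59 log2 units below GC-poor ones, and Zzz3_auxin replicate 3, where Keap1 was highest, held them 0.43 above. After a correction for exonic GC content and length in each library, the log2 FC of Keap1 was -0.01 for Zzz3_auxin and 0.01 for Yeats2_auxin. The trend differed between Control and the auxin libraries, so this correction may also remove a difference between groups.

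The glutathione genes comprise the catalytic and modifier subunits of glutamate-cysteine ligase, Gclc and Gclm, which make the first step of glutathione synthesis, and Gsr, the reductase that regenerates glutathione from its oxidised form. Gclc (chr9:77754535-77794485, plus strand) was at 96.3 and 89.8 CPM in Control, 123, 112 and 91.1 CPM in Zzz3_auxin and 101, 100.1 and 105 CPM in Yeats2_auxin. The Yeats2_auxin libraries all lay above the controls, by a log2 FC of 0.13 ± 0.13 (adjusted p = 0.682). Zzz3_auxin overlapped with Control, with a log2 FC of 0.22 ± 0.13 (adjusted p = 0.353).

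Gclm (chr3:122245557-122270732, plus strand) was at 93.3 and 74.5 CPM in Control, 90.7, 86.9 and 67.1 CPM in Zzz3_auxin and 78.0, 65.8 and 88.1 CPM in Yeats2_auxin. All groups overlapped. For Zzz3_auxin the log2 FC was -0.04 ± 0.17 (adjusted p = 0.92), and for Yeats2_auxin it was -0.12 ± 0.17 (adjusted p = 0.78).

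Gsr (chr8:33652523-33698163, plus strand) was at 181 and 191 CPM in Control, 272, 220 and 219 CPM in Zzz3_auxin and 203.5, 191.3 and 203.6 CPM in Yeats2_auxin. Both auxin groups lay above the controls, although Yeats2_auxin replicate 2 did so by less than 1 CPM. The log2 FC was 0.35 ± 0.12 for Zzz3_auxin (95% confidence interval 0.08 to 0.62; unadjusted p = 0.0169, adjusted p = 0.147) and 0.10 ± 0.12 for Yeats2_auxin (adjusted p = 0.746). Between the depletions, every Yeats2_auxin library was below every Zzz3_auxin library, with a log2 FC of -0.25 ± 0.11 (unadjusted p = 0.0451, adjusted p = 0.779). Unlike Keap1, Gsr is close to the middle of the GC range (50.1%), and its log2 FC for Zzz3_auxin was 0.34 with the GC and length trend removed.

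The thioredoxin genes were Txnrd1, the cytosolic selenoenzyme that reduces thioredoxin, Prdx1, an abundant peroxidase that uses thioredoxin to remove hydrogen peroxide, and Srxn1, sulfiredoxin, which repairs overoxidised peroxiredoxins. Prdx1 (chr4:116685544-116700822, plus strand) was at 880 and 753 CPM in Control, 582, 693 and 524 CPM in Zzz3_auxin and 649, 689 and 672 CPM in Yeats2_auxin. All 6 auxin libraries lay below both controls. The log2 FC was -0.45 ± 0.13 for Zzz3_auxin (95% confidence interval -0.74 to -0.15; unadjusted p = 0.00633, adjusted p = 0.106) and -0.29 ± 0.13 for Yeats2_auxin (unadjusted p = 0.0557, adjusted p = 0.353). Both comparisons use the same 2 controls. As counted, this was the largest difference of the 9 genes in either comparison with Control.

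Prdx1 passed the threshold for Zzz3_auxin in 2 of 15 alternative analyses. With no filter on low counts its adjusted p was 0.0373, in a fit that called 4.67% of all genes, and without Zzz3_auxin replicate 2 it was 0.0414, in a fit that called 4.84%. DESeq2 gave 0.0513. Prdx1 is GC-poor (42.3%), and with the GC and length trend removed its log2 FC was -0.24 for Zzz3_auxin (unadjusted p = 0.0301, adjusted p = 0.244) and -0.12 for Yeats2_auxin (adjusted p = 0.647). It stayed below 0 but was no longer the largest difference: Gsr (0.34) and Gclc (0.27) then exceeded it for Zzz3_auxin, as did Srxn1 (-0.28) for Yeats2_auxin.

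Srxn1 (chr2:152105516-152111376, plus strand) was at 99.6 and 89.4 CPM in Control, 124, 97.0 and 73.8 CPM in Zzz3_auxin and 78.4, 88.4 and 85.5 CPM in Yeats2_auxin. The Yeats2_auxin libraries lay just below both controls (log2 FC -0.17 ± 0.18, adjusted p = 0.701), whereas those of Zzz3_auxin lay on both sides of them (0.06 ± 0.18, adjusted p = 0.886). Txnrd1 (chr10:82833951-82897712, plus strand) was at 356 and 354 CPM in Control, 489, 419 and 318 CPM in Zzz3_auxin and 389, 276 and 394 CPM in Yeats2_auxin. The controls were closer to each other than the libraries of either auxin group, and both auxin groups spanned them. Txnrd1 had a log2 FC of 0.20 ± 0.19 (adjusted p = 0.564) for Zzz3_auxin and -0.01 ± 0.19 (adjusted p = 0.991) for Yeats2_auxin.

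Hmox1 (chr8:75093621-75100589, plus strand) encodes haem oxygenase 1, which breaks down haem and is among the most inducible NRF2 targets in many cell types. It is also held down by BACH1. Hmox1 was at 31.5 and 35.8 CPM in Control, 40.9, 35.7 and 27.4 CPM in Zzz3_auxin and 37.4, 30.2 and 37.7 CPM in Yeats2_auxin. The groups overlapped fully, with log2 FCs of 0.05 ± 0.18 (adjusted p = 0.909) for Zzz3_auxin and 0.06 ± 0.18 (adjusted p = 0.902) for Yeats2_auxin. Each value rests on 410 to 1065 reads.

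**Figure D2:**
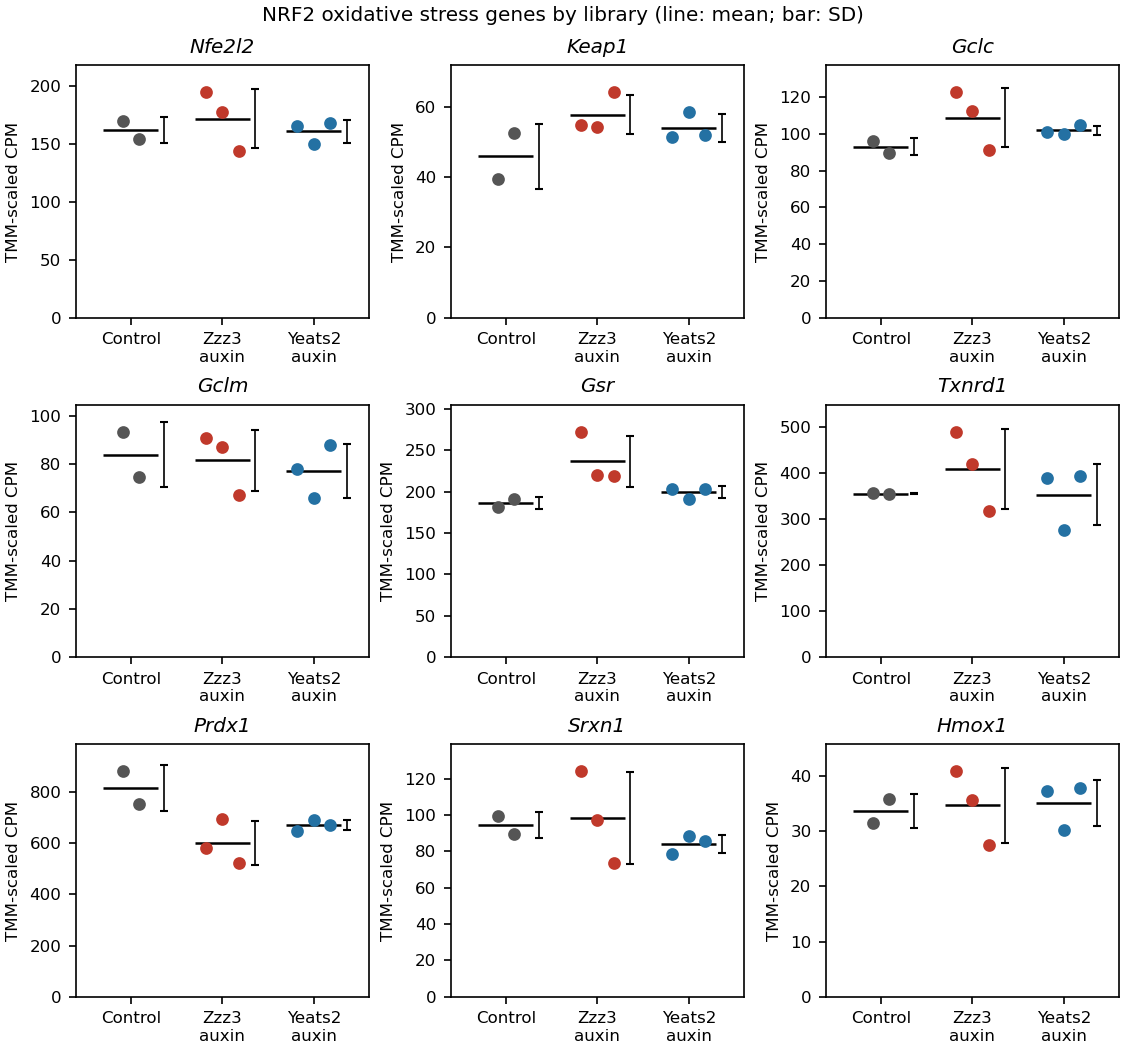
TMM-scaled CPM (y axis, from 0) of the 9 genes in each of the 8 libraries, grouped as Control, Zzz3_auxin and Yeats2_auxin (x axis), with the mean as a line and the SD as a bar. Prdx1 is below both controls in all 6 auxin libraries (524 to 693 against 753 and 880 CPM), and for Nfe2l2, Txnrd1, Srxn1 and Hmox1 the 3 Zzz3_auxin libraries span both controls.

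Counting libraries that do not overlap gave the same picture. For Zzz3_auxin against Control, 3 of 9 members did not overlap (Keap1 and Gsr higher, Prdx1 lower), beside 35.8% of all genes tested. For Yeats2_auxin, 4 of 9 did not (Gclc and Gsr higher, Prdx1 and Srxn1 lower), beside 40.3%, and between the depletions 1 of 9 (Gsr), beside 11.1%. These shares are near the background in the comparisons with Control.

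Taken as a group, the members varied widely between replicates. Zzz3_auxin replicate 1 was the highest library for 6 of the 9 genes and Zzz3_auxin replicate 3 the lowest for 4. The median log2 level of the 9 genes relative to the Control mean was 0.28, 0.13 and -0.17 in the 3 Zzz3_auxin libraries and 0.12, -0.11 and 0.13 in those of Yeats2_auxin. The same median over all genes tested was between -0.02 and 0.01 in every library, where the TMM scaling puts it. Zzz3_auxin replicate 3 was also the library with the fewest reads and with the strongest GC trend of the auxin libraries, and the part of either in its low values was not tested.

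Levels of different genes can be compared only per length, as CPM per kilobase of exon (CPM/kb). Here the length is the union of all annotated exons, which can exceed that of the transcripts expressed. The order below may depend on this choice. Averaged over the 8 libraries, Prdx1 was far above the rest at 224 CPM/kb, followed by Gsr (76.3), Txnrd1 (52.8), Nfe2l2 (43.6), Srxn1 (32.6), Gclc (27.1), Hmox1 (19.8), Gclm (12.8) and Keap1 (11.4). Prdx1 exceeded Gsr, and Gsr exceeded Txnrd1, in all 3 groups without overlap. Txnrd1 and Nfe2l2 overlapped in both auxin groups, as did Srxn1 and Gclc, and as did Gclm and Keap1. None of these pairs overlapped in Control. Library by library, Txnrd1 was above Nfe2l2 in 7 of 8, Srxn1 above Gclc in 8 of 8 and Gclm above Keap1 in 6 of 8. Nfe2l2 and Srxn1 overlapped in Zzz3_auxin alone, and Nfe2l2 was the higher in 8 of 8 libraries. The modifier subunit of glutamate-cysteine ligase was below the catalytic subunit, at 13.3 ± 2.12 against 24.7 ± 1.22 CPM/kb in Control (SD, n = 2).

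GC-rich and GC-poor genes were shifted against each other by different amounts in each library. The shift was -0.59 and -0.08 log2 units in Control, 0.15, -0.03 and 0.43 in Zzz3_auxin and 0.04, 0.13 and -0.03 in Yeats2_auxin. Both controls lay below every auxin library, so trend and group are partly confounded. A correction for the trend may therefore also remove a difference between groups, and the part of GC content in these differences was not tested. With the trend removed, the sign of the log2 FC turned for Keap1 (0.33 to -0.01), Gclm (-0.04 to 0.14), Srxn1 (0.06 to -0.07) and Hmox1 (0.05 to -0.05) in Zzz3_auxin. It did not turn for Nfe2l2, Gclc, Gsr, Txnrd1 or Prdx1. No member was called after this correction in either comparison with Control. The median log2 FC of the members was then 0.14 for Zzz3_auxin and 0.01 for Yeats2_auxin.

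**Figure D3:**
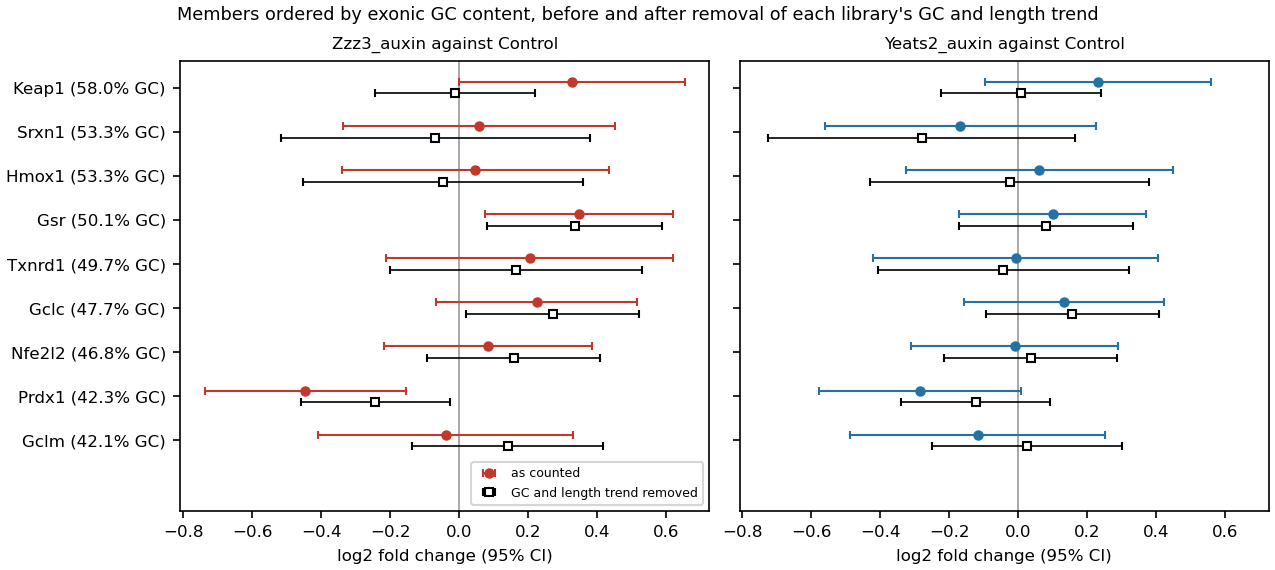
Log2 fold change (x axis, with 95% confidence intervals) of the 9 genes ordered by exonic GC content (y axis), as counted (filled) and after the correction for GC content and length (open squares). The GC-richest gene, Keap1, moves to about 0 in both comparisons, Prdx1 moves from -0.45 to -0.24 for Zzz3_auxin, and Gsr keeps its value.

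Other genes of the pathway were taken from a list of 57 in 7 roles, of which 55 passed the filter. This list too was chosen with earlier results of these data known, which limits its comparison with all genes. Slc7a11, the cystine importer and a well-known NRF2 target, was among the remaining genes, with 2 to 10 reads per library, and so was Osgin1 with 1 to 6. For Zzz3_auxin against Control, 1 of 55 was called (Ephx1, higher), and for Yeats2_auxin 0 of 55. At an unadjusted p under 0.05, 14 were higher and 4 lower for Zzz3_auxin, beside 11.6% and 10.1% of all genes tested. For Yeats2_auxin 12 were higher and 3 lower, beside 7.65% and 6.98%. DESeq2 called 9 for Zzz3_auxin, beside 7.78% of all genes, and 3 for Yeats2_auxin, beside 2.75%. The median log2 FC of the 55 was 0.14 and 0.08.

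Ephx1, microsomal epoxide hydrolase, a detoxification enzyme, was at 17.0 and 20.3 CPM in Control, 38.7, 33.3 and 29.0 CPM in Zzz3_auxin and 32.9, 30.4 and 32.8 CPM in Yeats2_auxin. Every auxin library was above both controls. Its log2 FC was 0.85 ± 0.16 for Zzz3_auxin (adjusted p = 0.0402) and 0.78 ± 0.16 for Yeats2_auxin (adjusted p = 0.0656), and the depletions did not differ detectably from each other (-0.08 ± 0.14, 95% confidence interval -0.37 to 0.22, adjusted p = 0.909). The call for Zzz3_auxin was lost in 8 of 15 alternatives, among them without Control replicate 1 (adjusted p = 0.497) and without Control replicate 2 (0.0806), while the log2 FC stayed between 0.73 and 0.99. For Yeats2_auxin, 5 of 15 alternatives called it.

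Txn1, thioredoxin itself, had the smallest p of its role in both comparisons and, like its peroxidase Prdx1, was lower in all 6 auxin libraries than in both controls. It was at 653 and 702 CPM in Control, 434, 521 and 452 CPM in Zzz3_auxin and 466, 509 and 457 CPM in Yeats2_auxin. The log2 FC was -0.53 ± 0.12 (adjusted p = 0.061) for Zzz3_auxin and -0.51 ± 0.12 (adjusted p = 0.0984) for Yeats2_auxin, and DESeq2 called both (adjusted p = 0.0056 and 0.017). For Zzz3_auxin its role held 4 of 10 genes at an unadjusted p under 0.05, of which 2 were higher and 2 lower. Of all genes tested, 11.6% were higher and 10.1% lower at this threshold. Values in this role thus lay in both directions.

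Of the glutathione genes on this list, 9 of 9 tested had a log2 FC above 0 for Zzz3_auxin, beside 51.1% of all genes, and 7 of 9 for Yeats2_auxin, beside 48.9%, and edgeR called none. With the GC and length trend removed these counts were 9 of 9 and 6 of 9. For Zzz3_auxin the count was 8 of 9 without Zzz3_auxin replicate 1 or without Control replicate 2. Mgst1 had only 1 to 29 reads per library, Glrx was at 0.03, and Gpx2 was high in Zzz3_auxin replicate 1 alone (58.2 CPM against 13.1 and 7.96 CPM). Of the members in this role, Gclc and Gsr were above 0 and Gclm below 0 in both comparisons as counted. Gss, which completes glutathione synthesis after the ligase of Gclc and Gclm, led for Zzz3_auxin at 130 and 150.04 CPM in Control against 234, 186 and 211 CPM (log2 FC 0.59 ± 0.14, adjusted p = 0.0669). Gsta4, a glutathione transferase for lipid peroxidation products, led for Yeats2_auxin at 632 and 670.03 CPM in Control against 802, 840.2 and 797 CPM (0.32 ± 0.11, adjusted p = 0.202). For Zzz3_auxin, DESeq2 called Gss (adjusted p = 0.0075), Gsta4 (0.0070) and Gpx1 (0.0328). It did not call Gsta4 for Yeats2_auxin (adjusted p = 0.0993).

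The other roles were led by genes that were higher in auxin libraries, with 1 exception. In NADPH supply these were Tkt, transketolase, for Zzz3_auxin (log2 FC 0.72 ± 0.22, adjusted p = 0.111) and Idh1, cytosolic isocitrate dehydrogenase, for Yeats2_auxin (0.38 ± 0.13, adjusted p = 0.232). In haem and iron it was Blvrb, biliverdin reductase B, for both (0.88 ± 0.24, adjusted p = 0.0901, and 0.59 ± 0.24, adjusted p = 0.295). Among regulators, Sqstm1, the autophagy receptor p62 that binds KEAP1, led for Zzz3_auxin (0.45 ± 0.16, adjusted p = 0.142), and the small MAF gene Mafk for Yeats2_auxin (0.73 ± 0.24, adjusted p = 0.2). Another small MAF gene, Maff, mentioned after its values were seen, was lower for both (-0.71 ± 0.31 and -0.72 ± 0.30), on 16 to 47 reads. At an unadjusted p under 0.05 this role of 11 genes held 1 higher and 2 lower for Zzz3_auxin, beside 11.6% and 10.1% of all genes tested. For Yeats2_auxin it held 2 higher and 1 lower, beside 7.65% and 6.98%. Its median log2 FC was -0.02 and 0.01. Of the remaining antioxidants, catalase (Cat) led for Zzz3_auxin (0.45 ± 0.18, adjusted p = 0.19) and Sod1, cytosolic superoxide dismutase and the exception, for Yeats2_auxin (-0.19 ± 0.20, adjusted p = 0.71). None of these was called in the main edgeR fit. DESeq2 called Tkt (adjusted p = 0.0299) and Blvrb (0.0134) for Zzz3_auxin. It called neither Blvrb for Yeats2_auxin (0.204) nor any other gene named for these roles. For Zzz3_auxin, Tkt and Blvrb each passed the threshold in 3 of 15 alternatives, and Sqstm1 and Cat in 1. For Yeats2_auxin, Idh1 and Blvrb did so in 1, and Mafk and Sod1 in 0. Over the 7 other settings the log2 FC for Zzz3_auxin was 0.53 to 0.735 for Tkt and 0.74 to 0.89 for Blvrb. It was 0.30 to 0.49 for Sqstm1 and 0.42 to 0.47 for Cat. For Yeats2_auxin it was 0.38 to 0.50 for Idh1, 0.48 to 0.61 for Blvrb, 0.55 to 0.75 for Mafk and -0.18 to -0.05 for Sod1. Like Keap1, Tkt was lowest in Control replicate 1 and highest in Zzz3_auxin replicate 3.

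**Figure D4:**
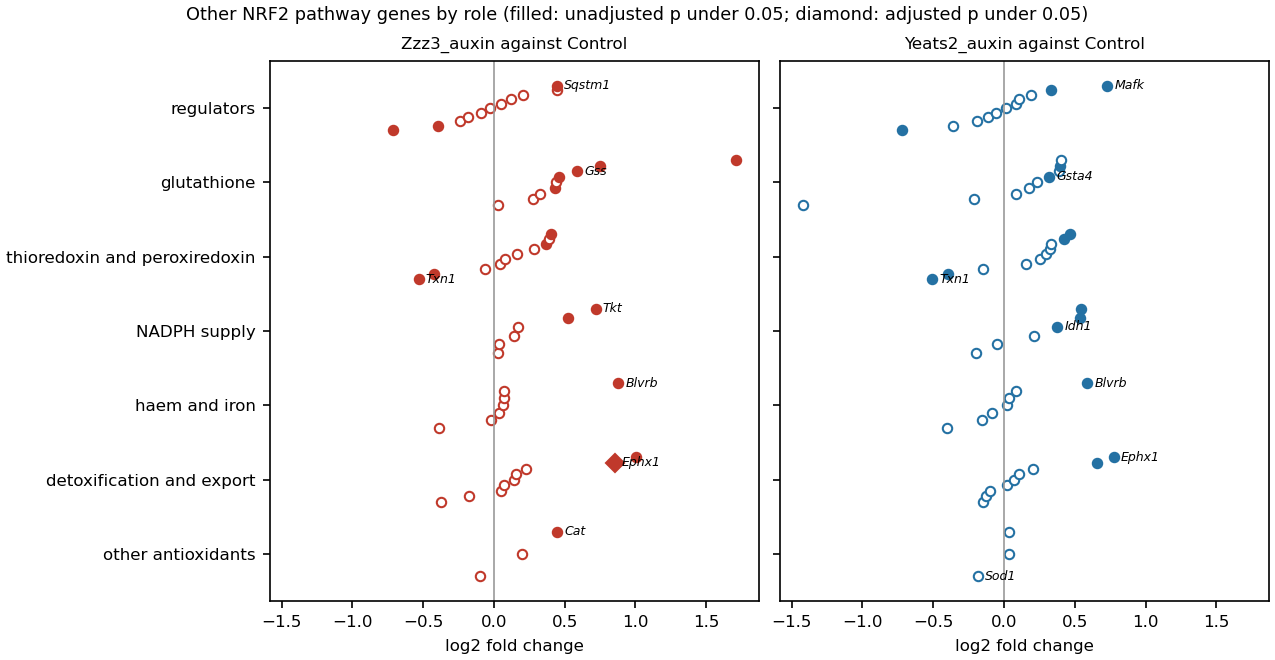
Log2 fold change (x axis) of the 55 other NRF2 pathway genes tested, in 7 roles (y axis), for Zzz3_auxin and Yeats2_auxin against Control. Filled points have an unadjusted p under 0.05, the diamond is Ephx1, the 1 gene called, and the leading gene of each role is named.

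By pattern over the 8 libraries, the genes most like Nfe2l2 among 8657 protein-coding genes that averaged 10 CPM or more were Spice1, Il6st and Map3k12, with Pearson r of log2 CPM of 0.966, 0.965 and 0.963. Those most like Hmox1 were Ogdh, Tfe3 and Bysl (0.962, 0.948 and 0.937). Of the other members, Txnrd1 was closest to Nfe2l2 (r = 0.903, rank 45), followed by Gclm (0.871), Gclc (0.866), Srxn1 (0.824) and Hmox1 (0.785). Gsr (0.587), Prdx1 (0.103) and Keap1 (-0.395) were further away. These values are a description over 8 libraries that share groups, depth and GC trend.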

How the data were processed

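Per the study's methods, the authors aligned reads to mm10 with STAR 2.5.3a and counted uniquely aligned, unambiguous reads per gene with HTSeq 0.6.1p1, so the deposited values are raw counts, with 1 file per library. Whether counting used strand is not given in the sources used here, and reads of genes overlapping Txnrd1 (Eid3), Keap1, Gclm, Gsr or Nfe2l2 may therefore be shared or lost. The labels name polyA RNA, whereas the protocol describes ribosomal RNA depletion. The 5 tallies of unassigned reads per file (63.5 to 69.4% of all entries) were left out. GENCODE vM21 (GRCm38) gave symbols, exons and positions, and 260 identifiers had no match. The RefSeq windows came from the same assembly.

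Counts were filtered with filterByExpr, scaled by TMM and fitted in edgeR 4.0.16 (R 4.3.3, limma 3.58.1), with all 8 libraries and a mean per group in 1 robust quasi-likelihood model. Tests were two-sided F tests, adjusted by Benjamini and Hochberg over 17532 genes. The SE is the log2 fold change divided by the square root of F. The pipeline was tested on simulated counts, in which the changes were larger than any of the members and no GC trend was set. That test does not show whether changes as small as theirs are detected. Tables and figures were made in Python 3.11.15 (pandas 2.3.3, numpy 2.4.6, matplotlib 3.10.9). Duplicates were looked for only between libraries of the same group, by a chi-square of their counts per gene, and none was an exact copy. Replicates 1 and 3 of Yeats2_auxin were by far the closest pair at 3.55, and the other pairs were at 19.7 to 47.9. Whether those 2 libraries came from separate cultures is not given.

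The members and lists were chosen with earlier results of these data known. Named genes were the 9 members, other pathway genes called or with the smallest p of their role against Control, the 3 genes most like Nfe2l2 and Hmox1, and Zzz3 and Yeats2. Alternatives were DESeq2 1.42.0, median-of-ratios factors, a filter at a mean of 1 CPM or none, only the groups compared, a replicate block, a lowess correction (span 0.3) of every library for exonic GC content and length, and leaving out each library.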

Additional observations from a re-analysis of the deposited data

How the results depend on the processing

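The 15 alternatives were 7 other settings and the removal of each of 8 libraries. Of 405 results for single members under them, 366 kept direction and side of the threshold, 37 changed sign and 2 passed the threshold. The number of members called was 0 in every alternative, except for Zzz3_auxin against Control with no filter (1, Prdx1) and without Zzz3_auxin replicate 2 (1, Prdx1), so that leaving out libraries gave 0 to 1.

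For Zzz3_auxin against Control, 1 other pathway gene was called, against 9 with DESeq2, 11 with no filter (4.67% of all genes), 0 with only the groups compared (0.0%), 0 with the replicate block (0.24%), 2 with the GC and length trend removed (0.954%), and 0 to 8 when libraries were left out (8 without Zzz3_auxin replicate 2, beside 4.84% of all genes, and 0 without either Control library, without Zzz3_auxin replicate 1 or without any Yeats2_auxin library). For Yeats2_auxin against Control, 0 were called, against 3 with DESeq2, 6 with no filter (1.68% of all genes), 4 with only the groups compared (2.69%), and 0 to 3 when libraries were left out (3 without Zzz3_auxin replicate 3, beside 1.25%). The cause was not tested.

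Apart from Keap1 for Zzz3_auxin (0.33 as reported), sign changes concerned log2 fold changes of -0.12 to 0.06. With the GC and length trend removed they became -0.012 for Keap1, 0.14 for Gclm, -0.068 for Srxn1 and -0.046 for Hmox1 (Zzz3_auxin), 0.0351 for Nfe2l2, 0.0248 for Gclm and -0.0253 for Hmox1 (Yeats2_auxin), and 0.0201 for Keap1 (between the depletions). For Yeats2_auxin, Nfe2l2 became 0.0119 with no filter, 0.0042 with only the groups compared and 0.0357 with the replicate block, and Txnrd1 became 0.0154, 0.006 and 0.0195 in the same settings and 0.0009 with the filter at 1 CPM. Leaving out libraries gave, for Zzz3_auxin, -0.19 to 0.13 for Gclm, -0.13 to 0.24 for Srxn1 and -0.071 to 0.20 for Hmox1. For Yeats2_auxin it gave -0.0765 to 0.0598 for Nfe2l2, -0.27 to 0.0529 for Gclm, -0.0931 to 0.14 for Txnrd1 and -0.0302 to 0.16 for Hmox1. Between the depletions it gave -0.21 to 0.0006 for Nfe2l2, -0.20 to 0.0014 for Gclc, -0.20 to 0.0241 for Gclm and -0.13 to 0.14 for Hmox1. Prdx1 and Gsr kept their sign in all 15 alternatives of each comparison.

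Libraries with the same replicate number did not clearly deviate together (r of -0.17 to 0.20 over 7 pairs), and no pairing was assumed. The 2 controls deviate from their mean as mirror images, so pairs with them are not independent. Whether libraries of the same number were handled together cannot be told from these values. The replicate block called 0 members in each comparison, and with it Ephx1 was at 0.89 (adjusted p = 0.0739) for Zzz3_auxin. With 2 controls, removal of 1 leaves a lone library assumed to vary like the other groups. Every member had at least 410 reads in each library.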

Other observations

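In the 3 Zzz3_auxin libraries, the RNA of Zzz3 itself was at 77.5, 96.9 and 112 CPM while the median log2 level of the 9 members relative to the Control mean was 0.28, 0.13 and -0.17. With 3 libraries this order has no test, and Zzz3 RNA does not measure loss of the protein, on which the degron acts. Nqo1, a quinone reductase often used to report NRF2 activity, was at 202 and 210 CPM in Control, 265, 226 and 231 CPM in Zzz3_auxin and 196, 224 and 205 CPM in Yeats2_auxin, and was chosen for mention after its values were seen.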
